A study of Mus musculus with 9 samples.

Results

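A set of 9 genes of transforming growth factor beta (TGF-beta) signalling was followed in retinal RNA-seq of rd10 mice treated with extracellular vesicles of mesenchymal stem cells (MSC-EVs). They were the ligands Tgfb1, Tgfb2 and Tgfb3, the latency protein Ltbp1, the receptors Tgfbr1 and Tgfbr2, the co-receptor Cd109, the mediator Smad3 and the target Tgfbi, 9 of the 22337 genes in the table. The genes were taken by symbol, and the set was chosen by measured values, namely the level of Cd109, which was higher with MSC-EVs than with normal saline (NS). Values of the 9 genes in that contrast are therefore given as a description without a test, as is Cd109 with MSC-EVs against wild type. The samples were 3 retinal libraries from each group at postnatal day 28 (P28): untreated C57 BL/6J mice (WT), rd10 mice given NS, and rd10 mice given MSC-EVs. The vesicles came from human umbilical cord mesenchymal stem cells, and each rd10 eye received 1 μL of MSC-EVs or NS at P14 and again at P21. The rd10 mouse carries a mutation of the rod phosphodiesterase gene Pde6b and loses its rods. WT eyes were not injected, so genotype and injection cannot be told apart in either comparison with WT. The labels place the injection in the vitreous in one field and call it intravenous in another.

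TGF-beta ligands are secreted in a latent complex, held by their own propeptide and tethered to the matrix by latent TGF-beta binding proteins such as Ltbp1, and must be released before they act. The free ligand binds Tgfbr2, which recruits and phosphorylates Tgfbr1, and Tgfbr1 phosphorylates Smad2 and Smad3, which enter the nucleus with Smad4. Cd109 is a membrane-anchored protein that binds TGF-beta and can dampen this signal. In the retina the pathway is known for its parts in microglial quiescence, Müller glial reaction and vessel maintenance.

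The libraries held 19491721 to 62532357 estimated counts, with MSC-EVs replicate 3 the deepest. Levels were expressed as CPM, which are counts divided by library size and scaled by TMM factors, and levels of different genes were compared only as FPKM, which divides by transcript length. Summed counts of 4 Y-linked genes were 4379 and 4421 in MSC-EVs replicates 1 and 2 and 7 to 23 in the other 7 libraries. Replicates 1 and 2 thus differed from MSC-EVs replicate 3 and from every WT and NS library. The labels give no sex, and Y-linked reads come from males, so sex and MSC-EVs treatment were partly confounded in both MSC-EVs comparisons. With Y-linked expression as a covariate, the difference of MSC-EVs from WT or NS therefore rested mostly on MSC-EVs replicate 3. The tissue label was checked against rod markers, whose summed level was 83000 to 88900 CPM in WT and 17000 to 24400 CPM over the rd10 libraries. In whole retina, a gain or loss of cells of a type and a change of RNA per cell cannot be told apart. The labels do not say that the libraries came from separate animals, so p-values measure the spread between these libraries, which may be technical.

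Upstream sequences of Tgfb1, Tgfb2 and Tgfbi are shown because they belong to the ligand that differed most from WT, the most abundant ligand, and the gene with the largest difference among the 9. They are RefSeq sequences on GRCm38.p6, printed 5′ to 3′ on the gene's strand, ending just before the first base of the gene in RefSeq or, where it comes earlier, in GENCODE. Tgfb1 is from chr7:25686752-25687001 on the plus strand, Tgfb2 from chr1:186705990-186706239 on the minus strand and Tgfbi from chr13:56609336-56609522 on the plus strand. Capitals mark matches to the motifs described next.
Tgfb1: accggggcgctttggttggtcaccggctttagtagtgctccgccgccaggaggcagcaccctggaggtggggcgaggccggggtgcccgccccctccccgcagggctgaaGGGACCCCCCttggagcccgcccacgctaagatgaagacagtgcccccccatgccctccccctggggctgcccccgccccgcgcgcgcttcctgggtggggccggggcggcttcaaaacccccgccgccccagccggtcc
Tgfb2: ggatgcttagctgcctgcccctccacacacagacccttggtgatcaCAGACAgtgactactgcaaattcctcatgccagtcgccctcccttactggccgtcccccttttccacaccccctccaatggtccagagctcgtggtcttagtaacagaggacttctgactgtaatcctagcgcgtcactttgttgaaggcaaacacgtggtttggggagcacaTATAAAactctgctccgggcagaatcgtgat
Tgfbi: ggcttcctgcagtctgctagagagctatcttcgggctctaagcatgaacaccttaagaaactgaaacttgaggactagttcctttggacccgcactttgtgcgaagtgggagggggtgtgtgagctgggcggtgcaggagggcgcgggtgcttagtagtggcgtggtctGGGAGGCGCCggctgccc

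The capitals in Tgfb1 and Tgfbi are an NF-kB motif, GGGA and CC with any 4 bases between them, and those in Tgfb2 are the Smad-binding element CAGACA and the TATA box TATAAA. Both strands were searched in the 250 bases upstream of the gene start, and matches could overlap. Of the 9 genes, 7 had an entry in the promoter table, with 9 start sites, and Cd109 and Tgfb3 had none. The NF-kB motif was found in 3 of the 9 windows, in Ltbp1, Tgfb1 and Tgfbi, and in 17.6% of all 32851 windows. CAGACA was in 3 of the 9 windows, in Ltbp1, Tgfb2 and Tgfbr1, and in 17.1% of all windows. TATAAA was in 1 of the 9, against 12.4% of all. The AP-1 motif TGANTCA was in 0 of the 9, against 6.75% of all, and the Smad palindrome GTCTAGAC in 0 of the 9, against 0.167% of all.

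All 9 genes had a higher mean level in NS-treated rd10 retinas than in WT retinas, and all 9 passed edgeR's quasi-likelihood test at an adjusted p of 0.05. Cd109 is among them, and its NS libraries were part of the choice of the set. Over all 14644 genes tested in this comparison, 61.3% passed, 31.2% as higher and 30.1% as lower. The median log2 fold change was 0.94 for the 9 genes and 0.01 for all genes. Tgfb1, Cd109 and Tgfbi also exceeded a log2 fold change of 1, as did 9.16% of all genes in the higher direction. The WT and NS libraries did not overlap for 8 of the 9 genes, with Tgfb3 the exception, and did not overlap for 66.9% of all genes.

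**Figure D1:**
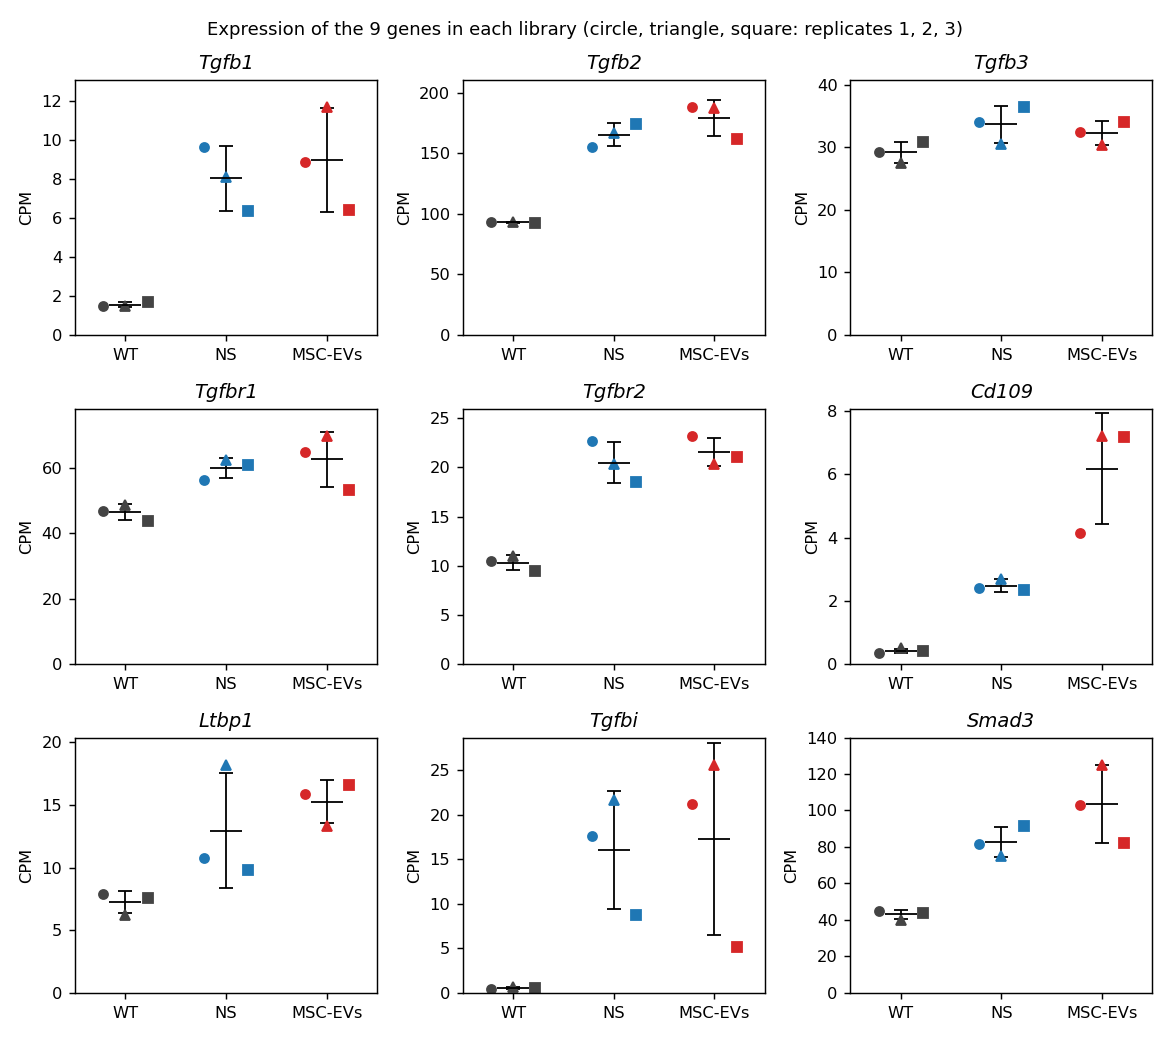
Level of each of the 9 genes in CPM (vertical axes, from 0) in the 3 libraries of WT, NS and MSC-EVs retinas, with circles, triangles and squares for replicates 1, 2 and 3, a line at the mean and bars of 1 SD. Both rd10 groups lie above WT in all panels but that of Tgfb3, and Cd109 is the gene whose MSC-EVs libraries, at 4.14 to 7.21 CPM, all lie above its NS libraries.

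Of the ligands, Tgfb1, the isoform known for its immune roles, rose most in rd10 retinas. The WT libraries held 1.48, 1.48 and 1.7 CPM, the NS libraries 9.66, 8.09 and 6.36 CPM, and the MSC-EVs libraries 8.86, 11.7 and 6.4 CPM. All 6 rd10 libraries lay above WT, and both rd10 groups covered much the same range. The log2 fold change against WT was 2.37 ± 0.2 (SE) in NS (adjusted p = 9.92e-07) and 2.53 ± 0.25 in MSC-EVs (adjusted p = 2.39e-05). These comparisons share the WT libraries. MSC-EVs differed from NS by 0.15 ± 0.24, with a nominal 95% interval of -0.31 to 0.61. With MSC-EVs replicate 3 alone, the MSC-EVs library without Y-linked reads, this difference was -0.32, an alternative chosen after seeing the data.

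Tgfb2, the isoform most associated with neurons and glia of the eye, held 93.6, 92.9 and 92.3 CPM in WT, 155, 167 and 174 CPM in NS, and 188, 187 and 162 CPM in MSC-EVs. The WT libraries lay close together and below every rd10 library, and MSC-EVs replicate 3 fell within the NS range. Its log2 fold change against WT was 0.83 ± 0.06 in NS (adjusted p = 1.32e-07) and 0.95 ± 0.07 in MSC-EVs (adjusted p = 3.4e-06), and MSC-EVs differed from NS by 0.12 ± 0.08. The gene shares 2.14% of its exonic bases with the antisense gene Gm29491, and strandedness of the counting is not given in the sources used here.

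Tgfb3, the third isoform, moved least. It held 29.3, 27.4 and 30.8 CPM in WT, 34.1, 30.5 and 36.4 CPM in NS, and 32.5, 30.3 and 34.1 CPM in MSC-EVs. NS replicate 2 and MSC-EVs replicate 2 lay inside the WT range. The log2 fold change in NS against WT was 0.21 ± 0.08 (adjusted p = 0.0465), and the call was lost without WT replicate 1, 2 or 3 or NS replicate 1 or 3, with adjusted p from 0.0502 to 0.176. In MSC-EVs against WT it was 0.16 ± 0.08 (adjusted p = 0.119), which did not pass, and in MSC-EVs against NS it was -0.05 ± 0.09. Up to 7.6% of its exonic bases are shared with the antisense gene Gm48008.

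Tgfb2 made up most of the ligand transcripts in every library. The summed FPKM of the 3 ligands was 25.9 ± 0.266 (SD, n = 3) in WT, 49.1 ± 2.05 in NS and 52.3 ± 4.2 in MSC-EVs. Tgfb2 accounted for 66.6% ± 1.43 of it in WT, 70.9% ± 2.05 in NS and 72.7% ± 1.18 in MSC-EVs. The share of Tgfb1 was 2.63% ± 0.15 in WT, 7.9% ± 1.83 in NS and 8.25% ± 2.11 in MSC-EVs. Tgfb3 made up 30.8% ± 1.28 in WT, 21.2% ± 1.28 in NS and 19% ± 2.57 in MSC-EVs, a smaller share of a larger sum. The shares of the rd10 groups differed from each other by no more than their spread.

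**Figure D2:**
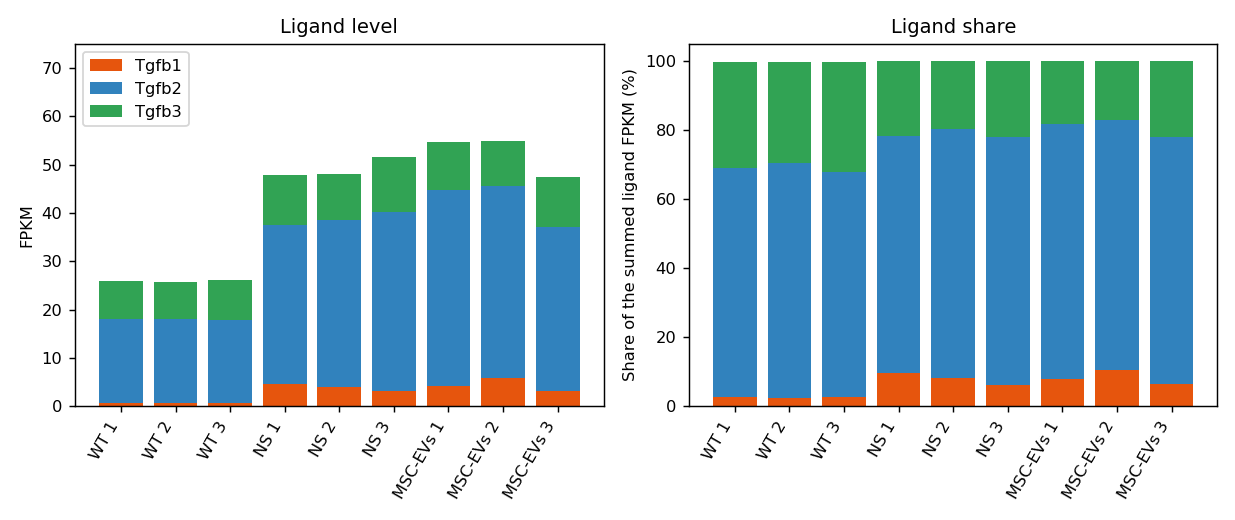
Level of Tgfb1, Tgfb2 and Tgfb3 in FPKM (left, stacked) and their share of the summed ligand FPKM in percent (right, stacked) in each of the 9 libraries. The stacks average 25.9 FPKM in WT and 49.1 and 52.3 FPKM in NS and MSC-EVs, with Tgfb2 the largest part throughout.

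Ltbp1, which anchors latent TGF-beta in the matrix, held 7.9, 6.22 and 7.61 CPM in WT, 10.8, 18.2 and 9.79 CPM in NS, and 15.9, 13.3 and 16.6 CPM in MSC-EVs. NS replicate 2 stood above the other NS libraries and above all MSC-EVs libraries, so the rd10 groups overlapped. Against WT the log2 fold change was 0.83 ± 0.23 in NS (adjusted p = 0.00998) and 1.09 ± 0.13 in MSC-EVs (adjusted p = 9.94e-05). Without NS replicate 2 the NS difference was 0.51 and still passed. MSC-EVs differed from NS by 0.26 ± 0.23.

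The receptors rose by different amounts in NS against WT. Tgfbr2, which binds the ligand first, held 10.5, 11 and 9.46 CPM in WT, 22.7, 20.3 and 18.5 CPM in NS, and 23.2, 20.4 and 21.1 CPM in MSC-EVs. Its log2 fold change was 0.99 ± 0.11 in NS (adjusted p = 8.26e-06) and 1.07 ± 0.1 in MSC-EVs (adjusted p = 1.76e-05) against WT. Every rd10 library lay above every WT library, and MSC-EVs and NS overlapped, with a difference of 0.08 ± 0.1.

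Tgfbr1, the signalling kinase of the pair, held 46.8, 48.7 and 43.7 CPM in WT, 56.4, 62.5 and 60.8 CPM in NS, and 64.7, 69.7 and 53.3 CPM in MSC-EVs. The WT libraries were lowest, and MSC-EVs replicate 3 was the lowest of the rd10 libraries. Against WT the log2 fold change was 0.36 ± 0.07 in NS (adjusted p = 0.000497) and 0.43 ± 0.1 in MSC-EVs (adjusted p = 0.00486). The MSC-EVs value fell to 0.21 when Y-linked expression was a covariate, a fit that rested mostly on MSC-EVs replicate 3. The difference between MSC-EVs and NS was 0.07 ± 0.1. By FPKM, Tgfbr1 exceeded Tgfbr2 in every group, at 7.96 ± 0.353 against 1.83 ± 0.248 in WT (SD, n = 3), 11.6 ± 0.624 against 3.83 ± 0.485 in NS, and 12.2 ± 1.58 against 4.29 ± 0.413 in MSC-EVs.

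Cd109 was the least abundant of the 9 genes by FPKM in every group and the one by which the set was chosen. Its estimated counts were 8, 11 and 8 in WT, 71, 55 and 51 in NS, and 99, 169 and 461 in MSC-EVs. Scaled to depth these were 0.359, 0.492 and 0.4 CPM in WT, 2.4, 2.7 and 2.33 CPM in NS, and 4.14, 7.21 and 7.17 CPM in MSC-EVs. The 3 groups did not overlap, and MSC-EVs replicate 1 was the lowest of its group.

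In NS against WT, Cd109 rose by a log2 fold change of 2.55 ± 0.29 (adjusted p = 1.05e-05), which 2.67% of the genes tested exceeded. The NS libraries of Cd109 were also part of the choice of the set, so this p is not independent of that choice. In MSC-EVs against NS the log2 fold change of Cd109 was 1.33 ± 0.24, a 2.52-fold higher level, and 28 of the 14765 genes tested had a higher one. In MSC-EVs against WT it was 3.89 ± 0.31. With MSC-EVs replicate 1 left out the difference from NS was 1.55, and it was also 1.55 with MSC-EVs replicate 3 alone. It was smaller, at 1.22 and 1.2, without MSC-EVs replicate 2 or 3, and was 0.53 in limma on log2(FPKM + 1). The FPKM means were 0.0667 ± 0.0115 in WT, 0.44 ± 0.0346 in NS and 1.09 ± 0.312 in MSC-EVs (SD, n = 3). Because WT counts were 8 to 11 per library, folds against WT are imprecise.

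Smad3, the receptor-activated transcription factor, held 45.1, 40.1 and 43.9 CPM in WT, 81.5, 74.9 and 91.5 CPM in NS, and 103, 125 and 82.4 CPM in MSC-EVs. Every rd10 library lay above WT, and MSC-EVs replicate 3 fell within the NS range. The log2 fold change against WT was 0.94 ± 0.08 in NS (adjusted p = 7.93e-07) and 1.27 ± 0.15 in MSC-EVs (adjusted p = 0.000437). MSC-EVs differed from NS by 0.33 ± 0.15 on the count scale, and by 0.53 in limma on log2(FPKM + 1). With MSC-EVs replicate 3 alone the count difference was 0.01.

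The count and FPKM of Smad3 differ in size because the length by which the authors divided varied. Unscaled CPM over FPKM gave a length of 4.77, 5.09 and 5.09 kb in WT, 4.59, 5.09 and 4.84 kb in NS, and 3.8, 3.84 and 4.48 kb in MSC-EVs. All MSC-EVs libraries lay below all others. In GENCODE M21 the longest Smad3 transcript is 5090 bases and the other 4 are 406 to 744 bases, so a lower value is what a larger share of short transcripts would give, and values of single transcripts were not analysed here. Of 8529 genes with an FPKM of at least 5 in every library, 828 (9.71%) had a length shorter in all MSC-EVs than in all NS libraries by more than 0.5%, and 50 (0.586%) had a lower ratio of means than the 83.5% of Smad3.

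Tgfbi, a matrix protein named for its induction by TGF-beta, had the largest log2 fold change from WT and, relative to its mean CPM, the largest spread in both rd10 groups. It held 0.493, 0.627 and 0.551 CPM in WT, 17.6, 21.7 and 8.74 CPM in NS, and 21.2, 25.6 and 5.13 CPM in MSC-EVs. Replicate 3 was the lowest library in each rd10 group, and the rd10 groups overlapped fully. Against WT the log2 fold change was 4.83 ± 0.44 in NS (adjusted p = 5.6e-05) and 4.93 ± 0.86 in MSC-EVs (adjusted p = 0.00593). The MSC-EVs value was 3.23 with the Y-linked covariate, a fit that rested mostly on MSC-EVs replicate 3, and 2.47 in limma on log2(FPKM + 1). MSC-EVs differed from NS by 0.08 ± 0.69, with a nominal 95% interval of -1.27 to 1.44, and by -1.63 with MSC-EVs replicate 3 alone.

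**Figure D3:**
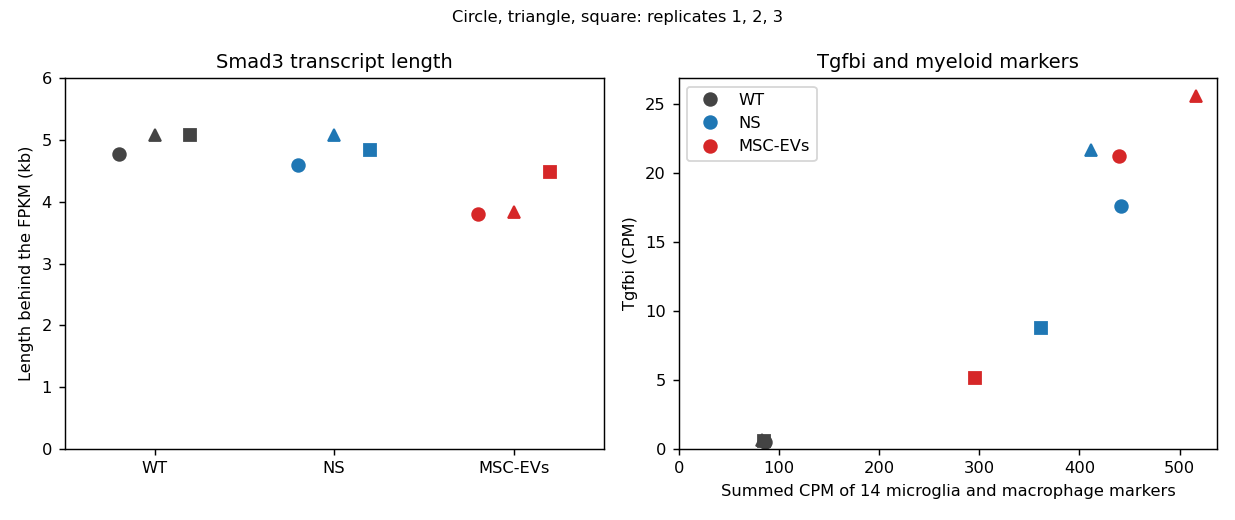
Left, length behind the Smad3 FPKM in kb in each library, which is 3.8 to 4.48 kb in MSC-EVs and 4.59 to 5.09 kb in the other groups. Right, Tgfbi in CPM against the summed CPM of 14 microglia and macrophage markers, where WT libraries sit at the lower left and the third replicates are the lowest of the rd10 libraries on both axes.

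Markers of other cell types also differed between NS and WT, where 31.2% of all genes tested rose and 30.1% fell. All 14 microglia and macrophage markers rose in NS against WT, with a median log2 fold change of 1.85, and their summed level was 82.7 to 86.1 CPM in WT, 362 to 441 CPM in NS and 296 to 516 CPM in MSC-EVs. MSC-EVs replicate 3 had the lowest rd10 sum and replicate 2 the highest, as for Tgfb1 within the MSC-EVs group and for Tgfbi in all rd10 libraries. Among Müller glia markers 9 of 10 rose in NS, with a median of 0.83, and their sum was 4500 to 4800 CPM in WT, 5530 to 6400 CPM in NS and 4700 to 5080 CPM in MSC-EVs. All 8 gliosis markers rose in NS, with a median of 2.79, and their sum was 209 to 223 CPM in WT, 1520 to 1970 CPM in NS and 2110 to 2810 CPM in MSC-EVs. The gliosis sums of the 3 groups did not overlap, as for Cd109. Libraries of MSC-EVs and NS did not overlap for 26.2% of all genes. Within MSC-EVs the order differed, with gliosis sums of 2810, 2610 and 2110 CPM in replicates 1, 2 and 3. In the same libraries Cd109 was at 4.14, 7.21 and 7.17 CPM. Neuron markers rose in NS too, in 7 of 8 cases for amacrine and horizontal cells, with a median of 0.24. For bipolar cells 5 of 8 rose and 1 fell, with a median of 0.28, and for ganglion cells 5 of 8 rose, with a median of 0.35. Of 8 cone markers 3 rose and 3 fell, with a median of -0.18. Endothelial and pericyte markers rose in 10 of 12 cases, with a median of 0.52. Fibroblast markers rose in 5 of 7 cases, with a median of 1.45 and sums of 35.9 to 37.5 CPM in WT, 82.8 to 91.7 CPM in NS and 78.1 to 87.7 CPM in MSC-EVs. Retinal pigment epithelium markers rose in 4 of 10 cases, also with a median of 1.45. That 40% lies near the 31.2% of all genes tested. The sums of these markers were 46.1 to 82.1 CPM in WT, 74.6 to 292 CPM in NS and 80 to 211 CPM in MSC-EVs. No listed marker was at 0 in any library for the microglia, Müller glia and gliosis lists. The part of these cell types in the results was not tested.

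MSC-EVs-treated retinas also differed from WT for most of the 9 genes. Leaving aside Cd109, whose MSC-EVs and NS values chose the set, 7 of 8 passed as higher and Tgfb3 did not. Over all 14623 genes tested 55.5% passed, 28.3% as higher and 27.2% as lower. The contrast of MSC-EVs with NS was the one used to choose the set, so the counts of the 9 genes in it restate that choice and nothing is read from them. None of the 8 genes other than Cd109 was past the threshold or had libraries of MSC-EVs and NS that did not overlap. As background, 1.16% of all 14765 genes passed, 0.914% as higher and 0.251% as lower, 0.0542% as higher with a log2 fold change of at least 1 as well, and the libraries did not overlap for 26.2% of all genes. The median log2 fold change in MSC-EVs against NS was 0.12 for the 9 genes and 0 for all genes.

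**Figure D4:**
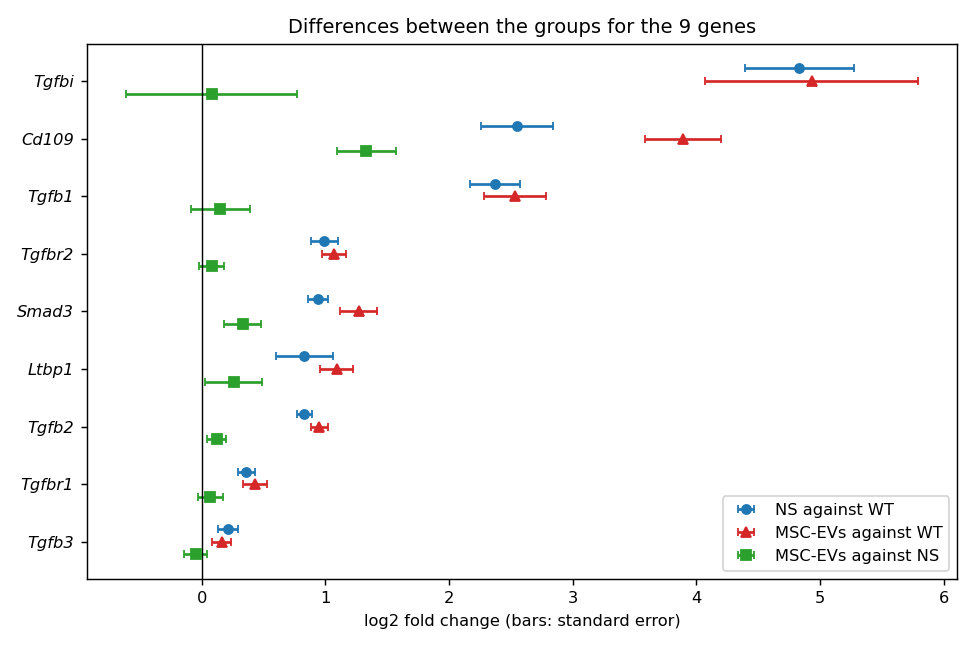
Log2 fold change (horizontal axis) of each of the 9 genes in NS against WT, MSC-EVs against WT and MSC-EVs against NS, with bars of 1 standard error, ordered by the first. Tgfbi, Cd109 and Tgfb1 differ most from WT, at 4.83, 2.55 and 2.37 in NS, and in MSC-EVs against NS the value for Cd109 is 1.33 and the others lie between -0.05 and 0.33.

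The order of the 9 genes by FPKM differed between WT and rd10 retinas. In WT, Tgfb2 was highest at 17.2 ± 0.197 FPKM, Smad3, Tgfb3 and Tgfbr1 followed at 8, 7.97 and 7.96 FPKM with overlapping libraries, and Tgfbr2, Ltbp1, Tgfb1, Tgfbi and Cd109 descended from 1.83 to 0.0667 FPKM without overlap. In NS, Tgfb2 stayed first at 34.9 ± 2.12 FPKM and Smad3 second at 17.9 ± 2.29 FPKM. Tgfbi, at 6.16 ± 2.54 FPKM, and Tgfb1, at 3.86 ± 0.765 FPKM, moved ahead of Tgfbr2 and Ltbp1, though neighbours from Tgfbi to Ltbp1 overlapped. The MSC-EVs group had the same order as NS, with Cd109 last at 1.09 ± 0.312 FPKM.

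Other genes of the pathway were taken from lists of 61 genes made with earlier results of these data known. In NS against WT, 39 of the 59 tested rose and 6 fell, with a median log2 fold change of 0.91. These were 66.1% and 10.2%, against 31.2% and 30.1% of all genes tested. Of the genes that release or hold the latent ligand, 12 of 15 rose and 1 fell, with a median of 1.27. The largest rises were in Thbs1, an activator of latent TGF-beta, at 3.69 ± 0.66 (adjusted p = 0.0088), the matrix protein Ltbp2 at 2.95 ± 0.25 (adjusted p = 1.05e-06), and the proteases Adamts1 at 2.1 ± 0.07 (adjusted p = 1.2e-09) and Bmp1 at 2.06 ± 0.13 (adjusted p = 5.4e-07). Thbs1 ranged from 45.6 to 169 CPM over the NS libraries and from 7.45 to 8.16 CPM in WT.

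Of the other receptors and co-receptors, 7 of 9 rose and none fell in NS against WT. Lrg1, a secreted modulator of TGF-beta signalling in endothelium, rose by a log2 fold change of 4.67 ± 0.48 (adjusted p = 4.78e-06) from 1 to 2 counts per WT library. Cd44, a hyaluronan receptor of reactive glia, rose by 3.13 ± 0.11 (adjusted p = 8.56e-09). The type I receptor Acvr1 rose by 0.83 ± 0.09 (adjusted p = 1.12e-05) and the endothelial co-receptor Eng by 0.68 ± 0.1 (adjusted p = 0.000112).

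Target genes rose in 16 of 20 cases, with a median log2 fold change of 1.27 and none lower. The protease inhibitor Timp1 rose by 5.68 ± 0.55 (adjusted p = 0.000121), the matricellular Ccn1 by 2.62 ± 0.21 (adjusted p = 2.67e-06) and the cell cycle inhibitor Cdkn1a by 2.6 ± 0.1 (adjusted p = 2.15e-09). These genes also answer to other signals.

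Smads and their regulators passed in both directions, with 4 of 15 higher (26.7%), 5 lower (33.3%) and a median of 0.05. These shares lie near those of all genes tested, 31.2% and 30.1%. The corepressors Tgif1, at 2.25 ± 0.19 (adjusted p = 1.13e-06), Skil, at 0.56 ± 0.06 (adjusted p = 7.14e-06), and Ski, at 0.37 ± 0.06 (adjusted p = 0.00027), rose, as did the inhibitory Smad6 at 0.65 ± 0.24 (adjusted p = 0.0326). Smad2, the partner of Smad3 as a receptor substrate, fell by 0.33 on the log2 scale (SE 0.06, adjusted p = 0.000375), and the shared Smad4 fell by 0.35 (SE 0.07, adjusted p = 0.000677). Smad2 and Smad4 were named after their values were seen.

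In MSC-EVs against WT, 36 of the 58 other pathway genes tested rose and 3 fell, with a median log2 fold change of 0.81. These were 62.1% and 5.17%, against 28.3% and 27.2% of all genes tested. The count of 39 was 23 with Y-linked expression as a covariate. Of the latency genes 12 of 15 rose and 1 fell, of the receptors 6 of 9 rose, of the Smads and regulators 5 of 15 rose and 2 fell, and of the targets 13 of 19 rose. The 33.3% of Smads and regulators that rose lies near the 28.3% of all genes. Thbs1 was 3.41 ± 0.11 higher than in WT (adjusted p = 3.89e-08), Timp1 6.22 ± 0.49 (adjusted p = 8.44e-05) and Lrg1 5.36 ± 0.38 (adjusted p = 3.74e-06). Ltbp2, at 1.38, 8.92 and 1.55 CPM in MSC-EVs, was high in replicate 2 only and did not pass (adjusted p = 0.103).

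In MSC-EVs against NS, 1 of the 60 other pathway genes tested passed (1.67%, against 1.16% of all genes tested), with a median log2 fold change of -0.02. It was Cd44, at 121, 142 and 151 CPM in NS and 226, 228 and 179 CPM in MSC-EVs, a log2 fold change of 0.62 ± 0.11 (adjusted p = 0.046) without overlap of the groups. It was 17.9, 15.8 and 13.2 CPM in WT. The call was lost with upper-quartile factors, with the Y-linked covariate, and when NS replicate 1, 2 or 3 or MSC-EVs replicate 1 was left out.

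**Figure D5:**
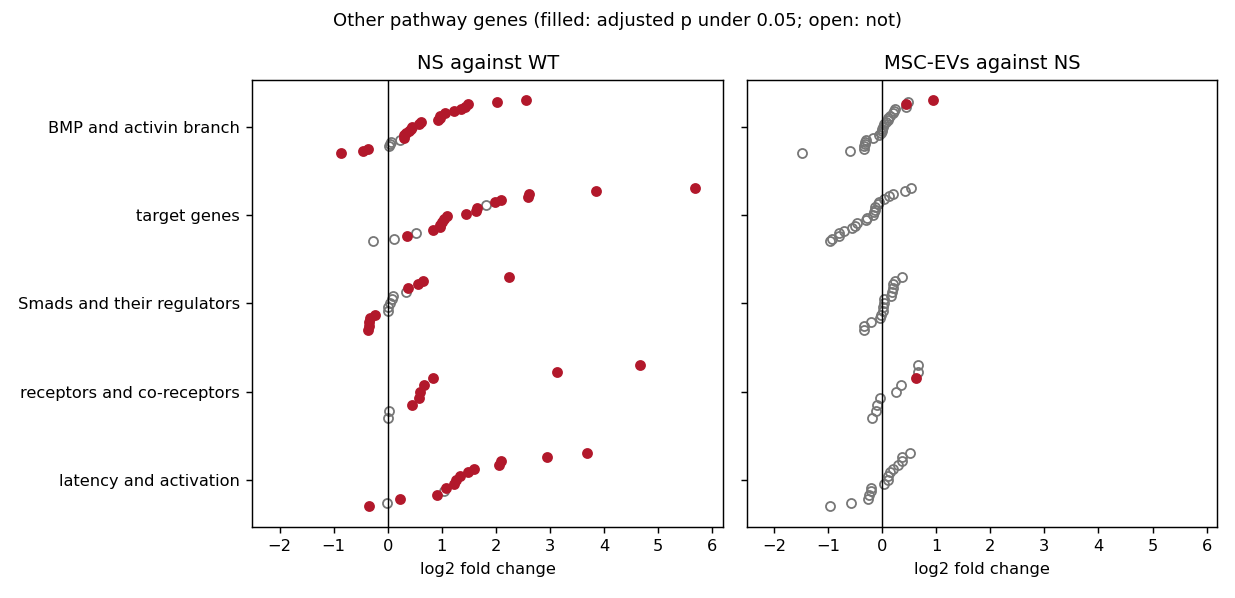
Log2 fold change (horizontal axes) of the other pathway genes, 1 point per gene in 5 lists, in NS against WT (left) and MSC-EVs against NS (right), filled where the adjusted p was under 0.05. In NS against WT 12 of 15 latency genes and 16 of 20 targets are filled to the right of 0, and in MSC-EVs against NS 3 points are filled over all 5 lists.

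The genes with the pattern most like each of the 9, by Pearson's r of log2 CPM over the 9 libraries among 14907 genes, are named as a description, since all of them share the contrast of WT with rd10. For Cd109 they were Wwtr1, Irak3, Cd24a, Lad1 and Atf3, with r from 0.9852 to 0.9896. They were Vcam1 and Nlrc5 for Tgfb1, Tnfrsf1a and Itgav for Tgfb2, Me3 and Slc35g1 for Tgfb3, and Kif23 and Ppp4r4 for Tgfbr1. For Tgfbr2 they were Trim12c and Fat1, for Ltbp1 Prkag2 and Nol6, for Tgfbi Cd84 and Aurkb, and for Smad3 Il1r1 and Rnf4.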

How the data were processed

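Total RNA of mouse retina was sequenced after oligo(dT) enrichment, with 3 libraries per group. The authors deposited 1 table with an estimated count and an FPKM value for each gene and library. The estimated counts were deposited without scaling, and the authors normalized the FPKM values for transcript length and depth. The submitters' processing notes name fastp, Bowtie2, HISAT2, StringTie 1.3.1 and RSEM. The genome build and annotation are not given in the sources used here. Columns were assigned to samples by name, and 0 columns of per-sample values went unused. Decimals were present in 9.16% to 11.7% of genes per library.

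Estimated counts were rounded and tested for each pair of groups with edgeR 4.0.16 (R 4.3.3), using filterByExpr, TMM factors and the quasi-likelihood test over all genes, with Benjamini-Hochberg adjustment and a threshold of 0.05. Intervals of log2 fold changes are nominal 95% intervals from the standard error and a normal quantile, which makes them too narrow with 3 libraries per group. On simulated data for NS against WT with 14640 genes tested and 200 changed, 210 were called and 198 of these were changed genes. Gene positions came from GENCODE M21 (GRCm38), which held 22232 of the 22337 identifiers, and promoters from RefSeq. Alternatives used DESeq2 1.42.0 and limma 3.58.1, other scaling and filters, a replicate block, Y-linked expression as a covariate, and each library left out. Named were the 9 genes and, from each list and comparison, up to 4 genes past the threshold with the largest absolute log2 fold change, of which 1 is not reported here. The members and lists were chosen with earlier results of these data known. Total counts set the precision, and among the 9 genes the lowest were the 8 counts per library of Cd109 in WT.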

Additional observations from a re-analysis of the deposited data

How the results depend on the processing

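In NS against WT and MSC-EVs against WT the 9 genes kept their direction under all alternatives run. With a log2 fold change of at least 1 as well, 3 of the 9 genes and 25 other pathway genes passed in NS against WT (45 in the main test), and 23 other pathway genes in MSC-EVs against WT (39), also 23 with Y-linked expression as a covariate. Leaving out 1 library gave 8 to 9 of the 9 genes in NS against WT and 8 in each MSC-EVs against WT fit (with Cd109, counted there as a description), and 43 to 48 and 29 to 43 other pathway genes. Tgfb3 in NS against WT also lost its call in DESeq2 (adjusted p = 0.0696) and in a fit of all 9 libraries (0.0544). limma on log2(FPKM + 1) gave a median of all genes of 0.137 in NS against WT and 0.118 in MSC-EVs against WT, where the main test gave 0.005 and -0.004.

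In MSC-EVs against NS, where Cd109 chose the set, its value is a description with no test. Its log2 fold change there ranged from 0.53 in limma on log2(FPKM + 1) to 1.55 without MSC-EVs replicate 1. The count of 1 other pathway gene past the threshold became 0 with upper-quartile factors, Y-linked expression as a covariate, an adjusted p under 0.01 or a log2 fold change of at least 1. It became 2 with no filter, and 7 in DESeq2 and in the fit of all 9 libraries. It became 6 with only libraries without Y-linked reads, an alternative chosen after seeing the data that sets MSC-EVs replicate 3 alone against 3 NS libraries and assumes that it varies as they do, and 0 to 8 with 1 library left out. Over all genes, 172 calls became 930 in DESeq2, 1026 in the fit of all 9 libraries, 295 with only libraries without Y-linked reads, 676 without MSC-EVs replicate 2, 32 without NS replicate 2, 5 at an adjusted p under 0.01 and 9 with the fold limit. By edgeR they became 0 without NS replicate 3 (1991 at an unadjusted p under 0.05) or MSC-EVs replicate 1 (2052). The cause was not tested.

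Samples of different groups share only a replicate number. Deviations of same-numbered MSC-EVs and NS samples correlated at 0.09, 0.17 and 0.27, each sample best with its own number, a hint from the data and not the design. With MSC-EVs or NS against WT they correlated at -0.06 to 0.08. The replicate block gave 4 other pathway genes and 403 genes in all in MSC-EVs against NS.

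Ligand shares from counts not divided by length were 1.26%, 3.91% and 4.04% for Tgfb1 in WT, NS and MSC-EVs, 75.2%, 79.8% and 81.2% for Tgfb2, and 23.6%, 16.3% and 14.7% for Tgfb3. Among the 9 genes, WT counts were lowest for Cd109 and Tgfbi, at 8 to 14 per library, and Lrg1 and Timp1 had 1 to 13.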

Other observations

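The bone morphogenetic protein (BMP) and activin branch, which shares receptors and Smad4 with TGF-beta, also differed in NS against WT, with 18 of 25 genes tested higher, 3 lower and a median log2 fold change of 0.44. These were 72% and 12%, against 31.2% and 30.1% of all genes tested. Bmp2, a ligand, was 2.56 ± 0.55 higher (adjusted p = 0.00483), the BMP antagonist Grem1 2.03 ± 0.26 (adjusted p = 3.72e-05), the activin subunit Inhba 1.49 ± 0.5 (adjusted p = 0.0397) and the BMP target Id3 1.43 ± 0.09 (adjusted p = 6.01e-08). In MSC-EVs against WT, 12 of 25 were higher (48%) and 1 lower (4%), against 28.3% and 27.2% of all genes tested.

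In MSC-EVs against NS, 2 of the 25 passed (8%), both higher, against 1.16% of all genes tested. The activin receptor Acvr2b was 28.5, 23.8 and 21.5 CPM in WT, 16, 12.9 and 11.4 CPM in NS, and 23.7, 25.7 and 28.3 CPM in MSC-EVs, a log2 fold change of 0.95 ± 0.13 (adjusted p = 0.0252). The BMP mediator Smad5 was 112, 102 and 108 CPM in WT, 79.3, 85.8 and 84.1 CPM in NS, and 111, 104 and 123 CPM in MSC-EVs, a log2 fold change of 0.45 ± 0.08 (adjusted p = 0.038). For both genes every NS library was the lowest, and MSC-EVs and WT libraries overlapped. Without NS replicate 3 or MSC-EVs replicate 1 no gene passed in MSC-EVs against NS, so both calls were lost there. Smad4, named after its values were seen, was 67.3 ± 2.66 CPM in WT, 53 ± 3.09 in NS and 68.1 ± 4.02 in MSC-EVs (SD, n = 3), and in MSC-EVs against NS it did not pass (0.37 ± 0.08, adjusted p = 0.0558). These comparisons share the NS libraries.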
